A study of Rattus norvegicus with 20 samples.

Results

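The chemotherapy effect on skeletal muscle was examined by comparing rats with a tumour that were given chemotherapy and fed the standard diet (CHEMO STD) with rats with the same tumour and diet but no chemotherapy (TUMOUR STD). The groups were taken from the sample labels, and together they made up 12 of the 20 libraries of the series, 7 from CHEMO STD and 5 from TUMOUR STD. CHEMO STD replicates 1 and 2 differed by hardly more than the sampling noise (chi-square per gene of 2.23, against 13.7 to 210.3 for the 30 further within-group pairs), so they were summed to 1 sample, named CHEMO STD 1+2, which left 11 of 19 samples (n = 6 and n = 5). The remaining 8 samples, from rats given chemotherapy with a fish oil diet (CHEMO FO), entered the fit so that all groups shared 1 estimate of the spread, and are not described here.

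All rats were female Fischer 344 and carried the Ward colorectal carcinoma, an implanted rat tumour that was left to grow before treatment. CHEMO STD received 2 cycles of CPT-11 (irinotecan, an inhibitor of topoisomerase 1) followed each time by 5-FU (5-fluorouracil, an inhibitor of thymidylate synthase), and gastrocnemius muscle was taken a week after the last cycle. TUMOUR STD carried the tumour without the drugs, so both groups shared the tumour and the diet, and a tumour-free group was not part of the comparison. The paper states that food intake fell significantly after chemotherapy, so the groups need not have eaten alike. Food intake and tumour size are not given by sample, and their part in the differences was not tested. Each library was total RNA depleted of ribosomal RNA. The labels give no age and do not state that each library came from a separate rat, so the p values measure the spread between these samples.

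The gastrocnemius is a mixed limb muscle in which fast-twitch fibres prevail and slow-twitch, oxidative fibres are fewer. Its mass follows the balance of protein synthesis with breakdown by the proteasome, lysosomes and muscle-specific ubiquitin ligases, and its fibres share the tissue with satellite cells, capillaries, arterioles, connective tissue, nerve and resident leukocytes. CPT-11 and 5-FU damage DNA chiefly in dividing cells, whereas muscle fibres do not divide.

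Library size ranged from 3023899 to 10537322 counts in CHEMO STD and from 5428544 to 10887041 in TUMOUR STD, and levels are given as CPM, the count per 1000000 counts of the library, on TMM-scaled library sizes. Myh4, the fast myosin heavy chain and the most abundant gene of each group, had a mean of 88769 ± 8733 CPM over the 6 samples of CHEMO STD and of 99587 ± 4236 CPM over the 5 of TUMOUR STD (± SD), and the 13 mitochondrially encoded protein genes had 0 counts in all 11 samples. A principal component analysis of the 11 samples did not separate the groups on its first axis, which took 37.5% of the variance and set TUMOUR STD 10, TUMOUR STD 12 and CHEMO STD 1+2 apart from the others. The second axis (10.6%) was set mainly by CHEMO STD 7. In TUMOUR STD 10, the 18 keratinocyte genes summed to 667 CPM, against 10.1 to 19.5 CPM in the other 10 samples. In CHEMO STD 7, 11 B cell genes summed to 112 CPM (1.91 to 5.86 CPM elsewhere). Tendon genes were high in TUMOUR STD 10, TUMOUR STD 12 and CHEMO STD 1+2, and values without these libraries are given beside the results that moved most with them.

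Of 11716 genes tested with edgeR's quasi-likelihood test, 279 (2.38%) had an unadjusted p under 0.05 together with a 1.5-fold or greater change, and these are referred to as called. Of them, 109 (0.93% of the genes tested) were higher and 170 (1.45%) lower in CHEMO STD. None passed a Benjamini-Hochberg adjusted p of 0.05 by edgeR (0 genes), where the called genes had adjusted p values from 0.652 to 0.719. At an unadjusted p below 0.05 alone there were 762 genes, where 586 would be 5% of those tested. DESeq2 on all 3 groups and limma voom likewise gave 0 past the adjusted threshold, whereas DESeq2 on the 2 groups alone gave 16. Every call given here therefore rests on unadjusted thresholds, in a comparison where no gene passed correction in the edgeR fit. Changes of genes that were not called are given as well, and these did not meet both thresholds. A gene described singly as higher or lower was called unless stated, whereas in counts over a list the words give only the sign of the log2 fold change.

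The called genes were mostly of low level, with a median of 6.21 CPM against 16.6 CPM over the genes tested, and a median change of 1.73-fold. In the main fit direction differed by level: among 4225 genes between 1 and 10 CPM, 77 were called higher and 95 lower, among 6353 between 10 and 100 CPM 32 and 54, and among 1137 above 100 CPM 0 and 21. The abundant called genes were thus all lower after chemotherapy, and they included the slow myosin heavy chain Myh7, filamin C (Flnc) and the calcium pump Atp2a2. The excess of lower calls over all levels was not found in every leave-one-out fit. Without TUMOUR STD 10, 83 genes were called higher and 78 lower, and without TUMOUR STD 8, 273 higher and 257 lower. In each of the other leave-one-out fits more genes were called lower than higher. By annotation, all but 5 of the genes called higher and all but 13 of those called lower were protein-coding. Over all genes tested the median log2 fold change was -0.0016, and 50.3% were lower. The plot of change against level shows these genes.

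**Figure D1:**
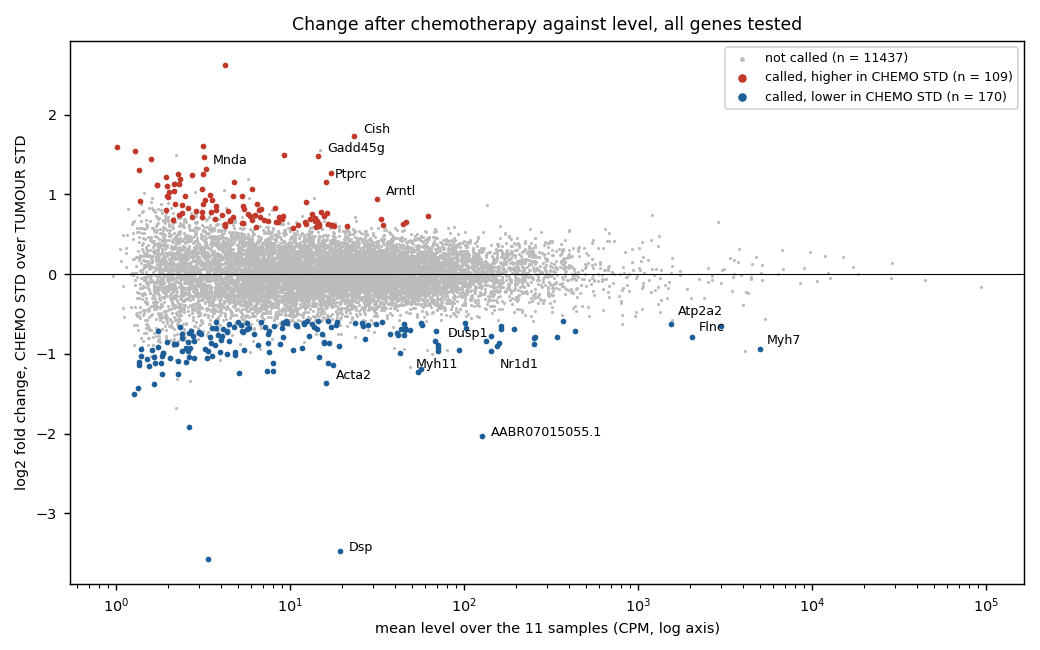
Log2 fold change of CHEMO STD over TUMOUR STD (vertical axis) against the mean level over the 11 samples in CPM (horizontal, log axis) for 11716 genes; 109 genes called higher are red and 170 called lower blue. Above 100 CPM only blue points are found, Myh7 the most abundant of them.

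Leaving out each of the 11 samples in turn kept 64 of the 279 genes called in every fit, 23 higher and 41 lower. Leaving out TUMOUR STD 10 removed the call of 158 genes, TUMOUR STD 12 that of 109 and CHEMO STD 4 that of 100, while each of the other samples removed 37 to 86. The CPM values of the 2 groups did not overlap in 58 genes (0.495% of those tested), of which 23 were also called, 6 higher and 17 lower. With groups of 6 and 5 samples, some of 11716 genes would separate fully by chance alone. How many would do so was not estimated, so lack of overlap is given for single genes as description only. Most genes named are the 12 of each direction with the smallest p among the 64, or members of the gene lists. To these were added up to 5 called genes of each direction without overlap and with a mean of at least 5 CPM. A further 32 genes, 8 of them called, were named after their values were seen. The gene lists were drawn up with earlier results of these data known. Some members, such as Mnda, Sash3, Limd2 and Mmp17, are among the top changes the study reported for the same comparison. Counts of called members are therefore description, not evidence for a list. They are to be read beside the 2.38% called over all genes tested, at which single calls say little about a list.

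The slow-fibre genes stood lower after chemotherapy as a group, led by Myh7, the myosin heavy chain of slow fibres, while the fast-fibre genes stood near 0 change. In bulk tissue, fewer cells or fibres of a type and less RNA in each cannot be told apart, which holds for every cell-type list. Myh7 ranged from 2713 to 4735 CPM (median 3522) in CHEMO STD and was 6463, 7385, 9609, 3415 and 7166 CPM in TUMOUR STD replicates 8 to 12. TUMOUR STD 11 alone fell within the CHEMO STD range, and the other 4 lay above it. It was called whichever sample was left out (log2 fold change -0.94, standard error 0.28). Myh6, a neighbouring gene chosen after its values were seen, was also lower (log2 fold change -0.68, standard error 0.23). Its sequence is close to that of Myh7, so that reads may have been shared. Atp2a2, the calcium pump of the slow sarcoplasmic reticulum, ranged from 961 to 1492 CPM (median 1226) against 2275, 2059, 1997, 1268 and 1918 CPM. Again only TUMOUR STD 11 overlapped with CHEMO STD (log2 fold change -0.62, standard error 0.20), and the call was lost without CHEMO STD 1+2, CHEMO STD 6, CHEMO STD 7 or TUMOUR STD 8 (log2 fold change -0.54 to -0.57).

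All 12 slow-fibre genes tested had a negative log2 fold change, with a median of -0.36 beside 0.00 over all genes. Called were 2 of the 12 (1.45% called lower over all genes tested). The 10 others lay between -0.27 and -0.53, among them the myosin light chain Myl3 (log2 fold change -0.53, standard error 0.25), the slow troponins Tnni1 (-0.51) and Tnnt1 (-0.36), and the calcium store protein Casq2 (-0.27). The list's median ranged from -0.53 to -0.23 with single samples left out, and 1 to 4 members were then called. Summed, the 12 genes reached from 7039.5 to 11708 CPM (median 8489) in CHEMO STD and 15418, 14529.9, 16933, 8609 and 14188 CPM in TUMOUR STD, so that the groups overlapped in TUMOUR STD 11 only. Of 11 fast-fibre genes tested, 7 were higher and 4 lower with a median of 0.05, and none was called (0 of 11). Fast myosin Myh4 had a log2 fold change of -0.17 (standard error 0.16), the fast light chain Myl1 0.23 and the fast troponin Tnnc2 0.31.

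Several abundant called genes belonged to the list of Z-disc and stretch-response genes, which also holds the M-band gene Myom3. Flnc, the muscle filamin that cross-links actin at the Z-disc, ranged from 1185 to 1925 CPM (median 1487) in CHEMO STD and was 1969, 3206, 3287, 2207 and 2593 CPM in TUMOUR STD. Every TUMOUR STD sample lay above every CHEMO STD sample, although the gap between TUMOUR STD 8 and CHEMO STD 7 was small (log2 fold change -0.79, standard error 0.20). Myom3, an M-band protein of slow and intermediate fibres, ranged from 76.0 to 142 CPM (median 91.3) against 149.8, 223, 235, 111 and 162 CPM (log2 fold change -0.84, standard error 0.29), with TUMOUR STD 11 inside the CHEMO STD range. Hspb7, a small heat shock protein that binds filamin C, ranged from 122 to 362 CPM (median 157) against 287, 373, 395, 269 and 329 CPM (log2 fold change -0.81, standard error 0.28). CHEMO STD 5 was the exception, with 362 CPM among the TUMOUR STD values.

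Ankrd2, a titin-binding ankyrin repeat protein induced by stretch, ranged from 65.5 to 245 CPM (median 86.9) against 210.2, 165, 320.4, 126 and 226 CPM (log2 fold change -0.86, standard error 0.34), and it lost its call without TUMOUR STD 10 (log2 fold change -0.65). Here too CHEMO STD 5 was the highest of its group. Of the 14 genes of the list, 12 were lower and 4 called (1.45% called lower over all genes tested), with a median of -0.35. The chaperone adaptor Bag3, which handles damaged filamin, was at -0.54 (standard error 0.23), under the fold threshold, and the actin-binding repeat protein Xirp2 stood on the other side at 0.66 without a call. Lmcd1, a LIM protein of the Z-disc region chosen after its values were seen, was lower as well (log2 fold change -0.69, standard error 0.26), losing its call without TUMOUR STD 12 (log2 fold change -0.56).

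Among genes that anchor the fibre to its surroundings, 24 of 31 genes of the dystrophin complex, integrins and laminins were lower (median -0.19), 1 of them called. This was Lama5, a laminin chain of basement membranes, which ranged from 15.9 to 25.5 CPM (median 17.8) against 26.8, 33.2, 39.4, 23.3 and 23.4 CPM (log2 fold change -0.62, standard error 0.16). CHEMO STD 1+2 reached into the TUMOUR STD range, and the call was lost without CHEMO STD 5, CHEMO STD 7, TUMOUR STD 9 or TUMOUR STD 10 (log2 fold change -0.48 to -0.58). Dystrophin itself (Dmd) was at 0.42 with a standard error of 0.35. Rxylt1, the enzyme that adds xylose to the sugar chain of dystroglycan, was higher, ranging from 18.4 to 27.3 CPM (median 20.4) in CHEMO STD against 12.9, 14.2, 11.8, 17.6 and 13.1 CPM in TUMOUR STD. The groups did not overlap (log2 fold change 0.60, standard error 0.15), but the fold change sat at the threshold and the call was lost without CHEMO STD 5, TUMOUR STD 8, TUMOUR STD 10 or TUMOUR STD 12 (log2 fold change 0.52 to 0.58). Fras1, which builds the Fraser complex of basement membranes, ranged from 24.6 to 31.6 CPM (median 30.6) against 57.2, 78.5, 65.3, 37.9 and 55.5 CPM. CHEMO STD was tight and lay wholly below TUMOUR STD (log2 fold change -0.99, standard error 0.33). Frem2, its partner in that complex and chosen after its values were seen, did the same (50.5 ± 9.21 CPM against 89.6 ± 22.8 CPM, SD; log2 fold change -0.84, standard error 0.27).

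Excitation and contraction coupling, with 16 genes tested, had a median of -0.03 and no call (0 of 16), with the calcium release channel Ryr1 at -0.39 (standard error 0.23). Of 12 neuromuscular junction genes none was called and the median was -0.18. The 9 denervation and developmental genes, with the embryonic myosin Myh3 at -0.36, gave a median of -0.13 and again 0 calls. Satellite cell and myogenic genes (11 tested, median -0.08, 0 called) included the satellite cell marker Pax7 at -0.08 and the myogenic regulators Myod1 at 0.26 and Myog at -0.13.

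Genes of muscle proteolysis, the pathway most often linked with wasting, showed no called member in this comparison. Since 2.38% of all genes tested were called, few calls or none would be found in lists of this size at that share. Fbxo32 (atrogin-1), a muscle ubiquitin ligase, ranged from 216 to 463 CPM (median 252) in CHEMO STD against 258, 354, 174, 169 and 161 CPM in TUMOUR STD, and the ranges largely overlapped (log2 fold change 0.35, standard error 0.48). The interval implied by that standard error includes both a decrease and an increase beyond 1.5-fold, so a difference of that size was not detectable. Trim63 (MuRF1), the companion ligase, was at 0.01 (standard error 0.54). None of 16 muscle ubiquitin ligases was called (median -0.08), nor any of 30 proteasome subunits (median 0.05, 22 higher), 21 autophagy and lysosome genes (median 0.00) or 9 calpains and caspases (median 0.00). For proteasome subunits the standard errors were smaller, as for Psma1 (log2 fold change 0.14, standard error 0.19) and Psmc4 (log2 fold change -0.04, standard error 0.13).

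Myostatin and activin signalling had a median of 0.02 over 13 genes with 0 called, with myostatin itself (Mstn, which limits muscle growth) at 0.10. Of 22 genes of IGF1, insulin and FOXO signalling, 2 were called lower (median -0.15), where 1.45% of all genes tested were called lower. Foxo6, a forkhead factor, ranged from 0.954 to 3.37 CPM (median 2.51) against 4.34, 4.97, 4.18, 3.40 and 5.15 CPM without overlap (log2 fold change -0.93, standard error 0.41). Its call was lost without CHEMO STD 4, CHEMO STD 5, TUMOUR STD 9 or TUMOUR STD 12 (log2 fold change -0.79 to -0.89). Igfbp4, which binds IGF1 outside the cell, was at -0.59 and lost its call without CHEMO STD 3, CHEMO STD 4, CHEMO STD 5, CHEMO STD 6, TUMOUR STD 10 or TUMOUR STD 12 (log2 fold change -0.42 to -0.55). Igf1 (-0.17) and the insulin receptor substrate Irs2 (-0.43) were not called. Bmp5, a bone morphogenetic protein chosen after its values were seen, was lower without overlap of the groups at a low level (3.26 ± 0.583 CPM against 5.19 ± 0.257 CPM, SD; log2 fold change -0.69, standard error 0.28).

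Cell cycle genes were mostly below the filter on low counts, with 11 of 26 tested. The exception to a median of -0.06 was cyclin D1 (Ccnd1), which drives entry into the cell cycle and is also expressed in resting muscle. Ccnd1 ranged from 8.52 to 15.3 CPM (median 10.3) in CHEMO STD and was 16.2, 17.9, 20.4, 22.97 and 26.6 CPM in TUMOUR STD. The groups did not overlap, TUMOUR STD 8 being the nearest to CHEMO STD (log2 fold change -0.86, standard error 0.25), and the call held in every leave-one-out fit. The proliferation markers Mki67 and Top2a were at 0.39 (standard error 0.45) and 0.72 (standard error 0.56).

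Of Wnt and Notch genes, 19 of 25 were lower and 2 called (median -0.18), with 6 called and a median of -0.37 without CHEMO STD 1+2 and 0 called and a median of -0.12 without TUMOUR STD 10. Notch3, the Notch receptor of vascular mural cells, ranged from 26.7 to 53.5 CPM (median 29.4) against 26.8, 69.0, 103, 36.4 and 57.1 CPM, TUMOUR STD 8 lying at the bottom of the CHEMO STD range (log2 fold change -0.77, standard error 0.31). It lost its call without TUMOUR STD 10 (log2 fold change -0.46). Axin2, a feedback target of Wnt signalling, was at -0.65 and lost its call without CHEMO STD 3, CHEMO STD 5, TUMOUR STD 10 or TUMOUR STD 12 (log2 fold change -0.43 to -0.62). TGF-beta ligands and targets had no called member (14 tested, 11 lower, median -0.26). Secreted muscle factors (7 tested, median -0.03) and polyamine metabolism (8 tested, 7 higher, median 0.20) likewise had 0 calls.

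Of 11 genes of catecholamine signalling, Ddc, which makes dopamine from L-DOPA, was called higher (log2 fold change 0.93, standard error 0.40) and the alpha-2A adrenergic receptor Adra2a lower (log2 fold change -1.11, standard error 0.44). Both were at a few CPM, and the groups overlapped. Ddc lost its call without CHEMO STD 4, CHEMO STD 6, TUMOUR STD 9 or TUMOUR STD 10 (log2 fold change 0.74 to 0.89), and Adra2a lost it when CHEMO STD 1+2, CHEMO STD 4, TUMOUR STD 9 or TUMOUR STD 11 was left out, since it then missed the filter on low counts. The median of the list was 0.10. Prox1, a transcription factor of slow muscle and lymphatic endothelium, was lower and ranged from 4.90 to 8.52 CPM (median 5.96) against 11.6, 14.9, 12.6, 7.60 and 11.7 CPM. Only TUMOUR STD 11 came within the CHEMO STD range (log2 fold change -0.88, standard error 0.23).

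**Figure D2:**
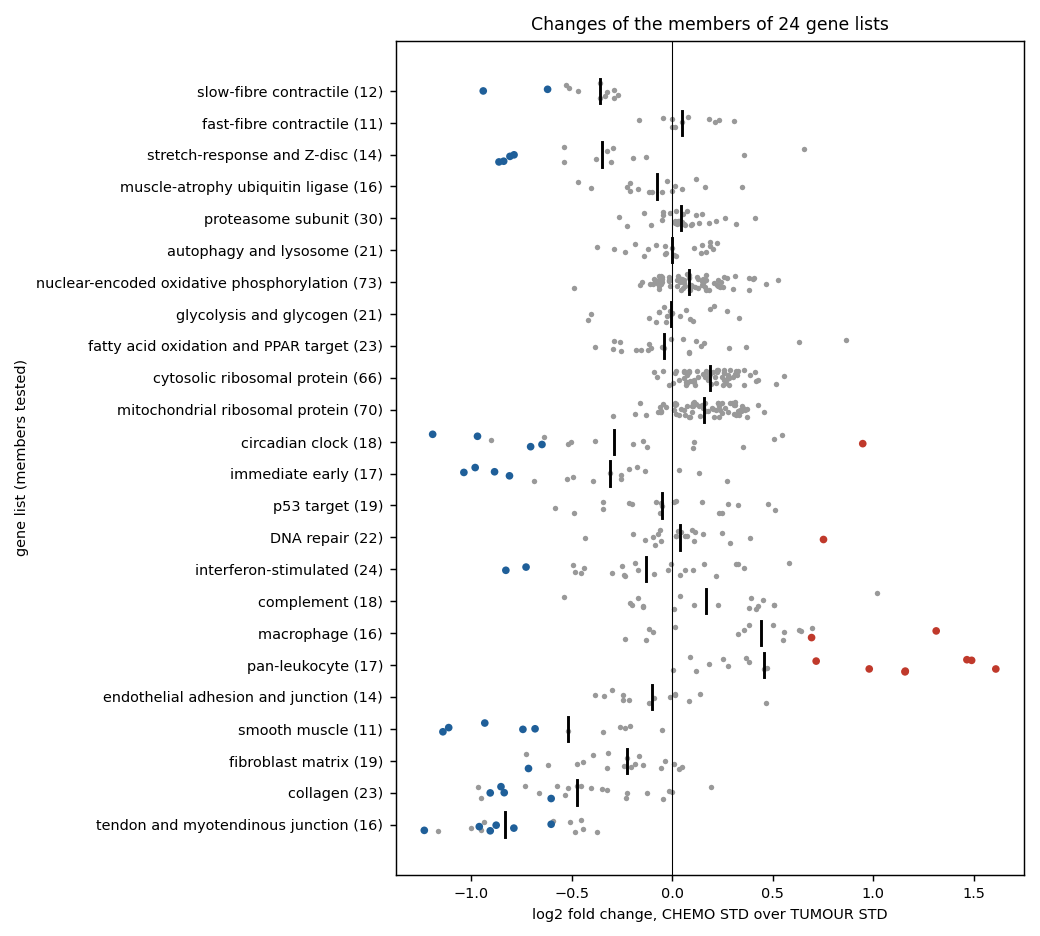
Log2 fold change of CHEMO STD over TUMOUR STD for each tested member of a selection of gene lists (number tested in brackets); black bars are list medians, coloured points are called genes and grey points genes not called. Slow-fibre, smooth muscle and tendon members all lie left of 0, and pan-leukocyte members all lie right of it.

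No gene of the central metabolic lists was called, where the 2.38% called over all genes tested would give few or none per list. Of 73 nuclear-encoded genes of oxidative phosphorylation 50 were higher and 23 lower, with a median of 0.08 and a range of -0.49 to 0.53. The complex I subunit Ndufs1 was at 0.11 (standard error 0.18) and the ATP synthase subunit Atp5f1a at -0.08 (standard error 0.14), so changes of 1.5-fold in these abundant genes lay outside 2 standard errors. Mitochondrial biogenesis and dynamics (17 tested, median 0.04), glycolysis and glycogen (21 tested, median 0.00), fatty acid oxidation and PPAR targets (23 tested, median -0.04) and catabolism of branched-chain amino acids (19 tested, 15 higher, median 0.13) had 0 calls each.

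Pdk4, which closes the entry of pyruvate into mitochondria in fasting, varied within each group by far more than between them. It ranged from 60.8 to 335 CPM (median 125) in CHEMO STD against 126, 135, 70.6, 24.4 and 112 CPM in TUMOUR STD (log2 fold change 0.86, standard error 0.73). Lipogenesis and desaturation genes (15 tested, 12 lower, median -0.25) were not called, and their median was 0.01 without TUMOUR STD 10. Of 10 phospholipase A2 and eicosanoid genes none was called (median -0.29, and -0.15 without TUMOUR STD 10). Cox4i2, a lung-type cytochrome oxidase subunit found in the vessel wall and chosen after its values were seen, was lower (2.61 ± 1.24 CPM against 5.06 ± 1.10 CPM, SD; log2 fold change -0.88, standard error 0.30).

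Ribosomal protein genes stood slightly above 0 change for the most part. Of 66 cytosolic ribosomal protein genes 62 were higher in CHEMO STD, with a median of 0.19, the largest 0.56 and 0 called. Rpl11 was at 0.28 (standard error 0.12) and Rpl10 at 0.12 (standard error 0.11). Of 70 mitochondrial ribosomal protein genes 59 were higher (median 0.16, 0 called). Their medians stayed between 0.13 and 0.24 and between 0.11 and 0.20 with single samples left out, lowest in both without TUMOUR STD 10. Translation factors were split (23 tested, 10 higher, median -0.01, 0 called). Histone genes (21 tested, 15 lower, median -0.21, 0.02 without TUMOUR STD 10) and the 1 tested gene among small nuclear and nucleolar RNAs, Rpph1 (-0.57), were not called. Naca, the nascent polypeptide-associated subunit that also has a muscle isoform, was lower (log2 fold change -0.69, standard error 0.21), chosen after its values were seen. TUMOUR STD 9 stood out with 446 CPM, and the call was lost without TUMOUR STD 9 (log2 fold change -0.35).

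Among transcriptional regulators, 4 genes of the circadian clock (Nr1d1, Per3, Dbp and Bhlhe40) were lower and its activator Arntl higher after chemotherapy, and 4 immediate early genes were lower. Clock activators bind the E-box CACGTG, CREB binds TGACGTCA, and serum response factor binds the CArG box. Stretches from the promoters of Dusp1 and Bhlhe40, both called lower, and of Gadd45g, called higher, are shown because they hold such letters (capitals) in the window from 250 bases before to 50 bases after the start site.
Dusp1, rat GRCr8 chr10:17184699-17184766, plus strand: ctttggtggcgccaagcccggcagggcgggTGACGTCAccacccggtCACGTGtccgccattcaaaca
Bhlhe40, rat GRCr8 chr4:143174200-143174265, plus strand: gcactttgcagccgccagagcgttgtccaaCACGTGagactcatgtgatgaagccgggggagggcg
Gadd45g, rat GRCr8 chr17:13530479-13530544, minus strand: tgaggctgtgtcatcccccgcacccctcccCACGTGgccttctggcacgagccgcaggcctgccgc
The sequences are those of RefSeq on GRCr8, a later build than that to which the reads were aligned. In Dusp1 TGACGTCA starts 124 and CACGTG 107 bases before the start site, and CACGTG starts 220 bases before it in Bhlhe40 and 163 bases before it in Gadd45g. The promoters of Dbp, Per3, Ccn1, Acta2 and Flnc, also called lower, held no exact match to the motifs searched. A site that differs from those letters would be missed, so this does not show that these promoters lack binding sites.

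The share of promoters with these letters is given for all genes beside the called ones, without a test. Searched on both strands, which is the same search for the palindromes CACGTG and TGACGTCA, CACGTG was found in 6.74% of 24206 promoters of the table, in 9.76% of the 8313 promoters of genes tested, in 8 of 102 promoters of genes called lower (7.84%) and in 3 of 58 of genes called higher (5.17%). The CArG box was found in 1.65%, 1.25%, 3 of 102 (2.94%, Egr1 among them) and 0 of 58. For TGACGTCA the shares were 1.91%, 3.08%, 2.94% and 3.45%, and for TTATGTAA, the D-box bound by the clock output factor Dbp, 0.917%, 0.445%, 0.98% and 0.

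Arntl (Bmal1), the activator of the clock, ranged from 16 to 64.9 CPM (median 45.9) in CHEMO STD and was 12.0, 14.8, 21.5, 40.0 and 15.4 CPM in TUMOUR STD. CHEMO STD 1+2 and 4 lay with the low TUMOUR STD samples, and TUMOUR STD 11 lay with the high CHEMO STD samples (log2 fold change 0.95, standard error 0.37). Dbp, a clock output factor opposite in phase, ranged from 14.8 to 71.5 CPM (median 26.2) against 88.4, 77.9, 79.2, 30.4 and 137 CPM. The same 3 samples crossed over in the opposite direction, CHEMO STD 1+2 and 4 being the highest of their group and TUMOUR STD 11 the lowest of its own (log2 fold change -1.19, standard error 0.49), and the call was lost without CHEMO STD 7 or TUMOUR STD 12 (log2 fold change -0.93 to -1.03). Nr1d1 (Rev-erb alpha), which represses Arntl, ranged from 77.8 to 121 CPM (median 101) against 126, 225, 268, 117 and 240.4 CPM (log2 fold change -0.97, standard error 0.31), with TUMOUR STD 8 and 11 next to CHEMO STD.

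Per3, a period gene, ranged from 26.7 to 61.0 CPM (median 32.1) against 77.3, 68.6, 62.4, 43.0 and 58.7 CPM (log2 fold change -0.70, standard error 0.25). CHEMO STD 4 was again highest in its group and TUMOUR STD 11 lowest in its own. Bhlhe40 (Dec1), a repressor of clock activation that also responds to many stimuli, ranged from 102 to 161 CPM (median 129) against 191, 238, 226, 135 and 231 CPM (log2 fold change -0.65, standard error 0.21), and its call was lost without CHEMO STD 6 (log2 fold change -0.58). Of 18 clock genes tested, 12 were lower and 6 higher with a median of -0.29 (-0.48 without CHEMO STD 1+2). Called were 5 (2.38% over all genes tested), 3 of them (Arntl, Nr1d1 and Per3) whichever sample was left out. Among those not called, Clock and Npas2, partners of Arntl, were at 0.35 and 0.55, Cry2 at -0.52 and Ciart at -0.90. The hour at which each rat was killed is not given in the sources used here, and its part in these differences was not tested.

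Fos, an AP-1 subunit that is induced within minutes of a stimulus, ranged from 6.43 to 14.8 CPM (median 9.71) in CHEMO STD against 30.4, 22.3, 14.6, 17.1 and 17.6 CPM in TUMOUR STD. The groups met only where CHEMO STD 7 lay just above TUMOUR STD 10 (log2 fold change -1.04, standard error 0.30). Egr1, an early growth response factor and a target of serum response factor, ranged from 3.06 to 8.06 CPM (median 5.07) against 9.56, 13.9, 13.3, 7.28 and 8.16 CPM. CHEMO STD 7 and TUMOUR STD 11 were the samples that overlapped (log2 fold change -0.98, standard error 0.27). Dusp1, a phosphatase that turns off MAP kinases, ranged from 38.7 to 64.5 CPM (median 51.0) against 123, 66.9, 87.6, 74.7 and 122 CPM. Every TUMOUR STD sample lay above every CHEMO STD sample, with TUMOUR STD 8 and 12 the highest (log2 fold change -0.88, standard error 0.21). Ccn1, a matricellular protein of the same early response, ranged from 10.7 to 31.5 CPM (median 21.0) against 39.6, 35.9, 33.3, 32.0 and 38.1 CPM and did not overlap either, CHEMO STD 1+2 coming nearest (log2 fold change -0.81, standard error 0.25).

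Of 17 immediate early genes tested, 14 were lower (median -0.31, and -0.58 with 7 called without CHEMO STD 1+2). The 4 called genes (1.45% called lower over all genes tested) were called in every leave-one-out fit. Others stood lower without a call, among them the AP-1 subunit Jun (-0.49, standard error 0.17), Nr4a1 (-0.52) and Junb (-0.39), whereas Atf3 (0.27) and Klf4 (0.04) did not. Dusp1 was also the only called gene of 14 glucocorticoid response genes, of which 9 were higher (median 0.18, and 0.02 without CHEMO STD 1+2), Cebpd at 0.96 and Fkbp5 at 0.16. Cebpd was at 43.1 CPM in CHEMO STD 1+2, and its log2 fold change was 0.43 without that sample.

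**Figure D3:**
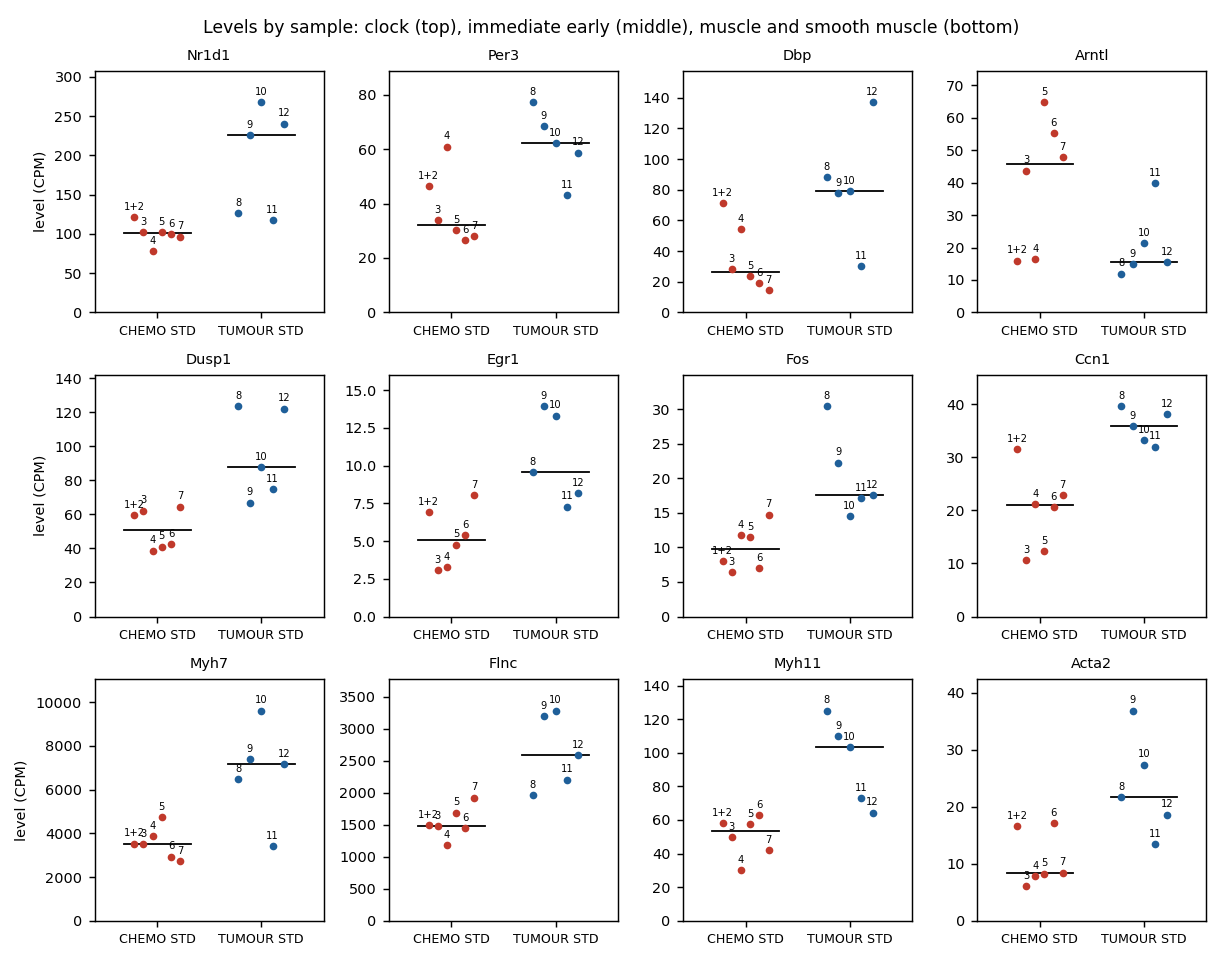
Level in CPM (vertical axis, from 0) of 12 genes in the 6 CHEMO STD samples (red) and 5 TUMOUR STD samples (blue), numbered by replicate, with group medians as bars. Dusp1, Ccn1, Flnc and Myh11 do not overlap between groups, and CHEMO STD 1+2 and 4 and TUMOUR STD 11 sit with the other group for Arntl.

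Of the Gadd45 family, 1 of 4 genes was called. Gadd45g, a stress sensor that binds cell cycle and MAP kinase proteins, ranged from 8.90 to 31.5 CPM (median 20.01) in CHEMO STD and was 8.34, 9.55, 3.79, 10.5 and 5.15 CPM in TUMOUR STD. CHEMO STD 5 alone lay within the TUMOUR STD range (log2 fold change 1.48, standard error 0.48). Its relatives Gadd45a (0.51, standard error 0.56) and Gadd45b (0.03) were not called. Of 22 DNA repair genes 1 was called, namely Rpa3, the small subunit of the complex that coats single-stranded DNA, which ranged from 4.34 to 9.86 CPM (median 7.06) against 3.47, 3.58, 2.43, 5.02 and 6.21 CPM (log2 fold change 0.75, standard error 0.27). Its partners Rpa1 (0.04) and Rpa2 (0.16) lay near the list's median of 0.04. With 2.38% called over all genes tested, 1 call among 22 genes does not set this list apart.

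Outside that list, 2 genes of genome maintenance were among those named because they were called in every leave-one-out fit. They were grouped here after their values were seen, and they changed in opposite directions. Parp2, a poly(ADP-ribose) polymerase that responds to DNA breaks, ranged from 7.99 to 12.7 CPM (median 9.55) in CHEMO STD against 14.9, 12.7, 13.99, 18.8 and 22.5 CPM in TUMOUR STD, with a narrow gap and no overlap (log2 fold change -0.77, standard error 0.20). Cinp, a partner of the ATR kinase complex in the replication checkpoint, went the other way and ranged from 6.51 to 8.90 CPM (median 7.51) against 5.73, 5.77, 3.11, 5.66 and 2.48 CPM, also without overlap (log2 fold change 0.74, standard error 0.23). Parp1 itself was at -0.08 with a standard error of 0.12. The 19 p53 targets tested had a median of -0.05 and no call, with Cdkn1a (p21) at -0.20 (standard error 0.62), Mdm2 at -0.06 (standard error 0.12) and cyclin G1 (Ccng1) at 0.48 (standard error 0.25).

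None of 15 genes that handle the drugs was called (median 0.08), neither the 5-FU target Tyms (-0.06) nor its catabolic enzyme Dpyd (-0.36) nor the CPT-11 target Top1 (0.25, standard error 0.30). Heat shock and DnaJ chaperones (18 tested, median -0.04), ER stress and ATF4 genes (18, -0.06), NRF2 targets (18, -0.06) and metallothioneins with zinc transporters (9, -0.15) had 0 calls each. Among them Hspb1 was at -0.24, Atf4 at -0.08 and Hmox1 at -0.10.

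Cish, a feedback inhibitor induced by STAT5 downstream of growth hormone and cytokines, gave the largest increase of the named protein-coding genes, with a wide spread within both groups. It ranged from 8.26 to 58.5 CPM (median 35.2) in CHEMO STD and was 3.47, 10.7, 21.5, 3.56 and 12.1 CPM in TUMOUR STD. CHEMO STD 1+2, 4 and 6 were at 57.7, 46.2 and 58.5 CPM, whereas CHEMO STD 3 and 7 lay within the TUMOUR STD range (log2 fold change 1.73, standard error 0.59). It was the only called gene of 15 in IL6-family and STAT3 signalling (median 0.11, and -0.04 without CHEMO STD 1+2), where Socs2 was at 0.36, Socs3 at 0.45 (standard error 0.34) and Stat3 at -0.15. TNF, TWEAK and NF-kB genes (15 tested, median -0.12) had 0 calls.

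The pan-leukocyte genes were all higher (17 of 17, median 0.46), and 7 were called (0.93% called higher over all genes tested), but this rested on 1 library. Ptprc (CD45), carried by all leukocytes, was at 65.9 CPM in CHEMO STD 7 and ranged from 8.16 to 17.4 CPM in the 10 other samples. Its log2 fold change was 1.16 (standard error 0.38) and 0.39 without CHEMO STD 7, where it was no longer called. Coro1a, a leukocyte actin regulator, went from 1.49 to -0.01 without that sample, and it also lost its call without TUMOUR STD 8, 9 or 11. Sash3 (1.47, and 0.70 without CHEMO STD 7) and Limd2 (1.61, and 0.30) likewise lost theirs, Limd2 also without CHEMO STD 1+2. Without CHEMO STD 7 the median of the list was 0.19 and 1 gene was called.

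That gene was Fyb1, an adaptor of T cells, platelets and myeloid cells. It ranged from 3.31 to 13.0 CPM (median 5.23) in CHEMO STD against 2.95, 3.68, 2.33, 2.43 and 3.90 CPM in TUMOUR STD, with CHEMO STD 6 alone inside the TUMOUR STD range, and was called in every leave-one-out fit (log2 fold change 0.98, standard error 0.31). The highest value was again that of CHEMO STD 7, and without that sample the log2 fold change of Fyb1 was 0.62, close to the fold threshold. B cell genes (11 listed) and neutrophil genes (9 listed) did not pass the filter on low counts (0 tested), nor did the 10 liver plasma proteins. Of 17 T and natural killer cell genes 2 were tested, and neither was called (0 of 2). The summed level of the T and natural killer cell list was 88.9 CPM in CHEMO STD 7 and 21.1 to 34.95 CPM in the others.

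Macrophage genes were less dependent on that library. Of 16 tested 12 were higher (median 0.44, and 0.35 without CHEMO STD 7 or without CHEMO STD 1+2). Called were 2, among them Mnda, which the study had already reported as higher when the list was drawn up. Mnda, an interferon-inducible nuclear protein of myeloid cells, ranged from 2.69 to 5.75 CPM (median 4.45) in CHEMO STD and was 2.95, 1.69, 1.94, 1.29 and 1.24 CPM in TUMOUR STD. CHEMO STD 6 and TUMOUR STD 8 were the samples that overlapped (log2 fold change 1.31, standard error 0.36). The general markers Cd68 (-0.13), Csf1r (-0.09) and Adgre1 (-0.11) stood near 0 or below, while the resident-type markers Lyve1 (0.64), F13a1 (0.56) and Cd163 (0.55, standard error 0.51) were positive without a call. Of these, Csf1r, Adgre1, Lyve1 and F13a1 were chosen after their values were seen. Lyve1 and F13a1 were highest in CHEMO STD 1+2 and stood at 0.47 and 0.46 without that sample. Summed, the list reached from 259.6 to 469 CPM (median 334) in CHEMO STD and 257, 233, 378, 204 and 359 CPM in TUMOUR STD, and the groups overlapped widely.

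MHC class II genes (5 of 5 higher, median 0.38, 0 called) had a median of -0.09 without CHEMO STD 7. MHC class I (7 tested, median -0.08), complement (18 tested, median 0.17) and chemokines with their receptors (15 tested, median 0.20) had 0 calls. The complement median was 0.01 without CHEMO STD 7 and 0.04 without CHEMO STD 1+2, and that of the chemokines 0.16 and 0.08. Interferon-stimulated genes were lower rather than higher in 15 of 24 (median -0.13), and 2 were called lower (1.45% over all genes tested). Mx2, an interferon-induced GTPase, ranged from 2.00 to 4.45 CPM (median 2.99) against 8.34, 5.87, 4.27, 3.88 and 3.73 CPM (log2 fold change -0.83, standard error 0.31), TUMOUR STD 8 being the highest, and lost its call without TUMOUR STD 8 (log2 fold change -0.60). Cd274 (PD-L1), an inhibitory ligand for T cells, was at -0.73 and lost its call without CHEMO STD 1+2, CHEMO STD 3, CHEMO STD 4, CHEMO STD 5, CHEMO STD 7, TUMOUR STD 8 or TUMOUR STD 10 (log2 fold change -0.51 to -0.78). Cma1, a chymase of mast cells, was the only called gene of 6 mast cell genes (median 0.49). It ranged from 4.45 to 10.4 CPM (median 5.85) against 3.65, 5.07, 2.14, 2.59 and 6.03 CPM (log2 fold change 0.82, standard error 0.33) and lost its call without CHEMO STD 1+2, CHEMO STD 7, TUMOUR STD 10 or TUMOUR STD 11 (log2 fold change 0.66 to 0.71).

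**Figure D4:**
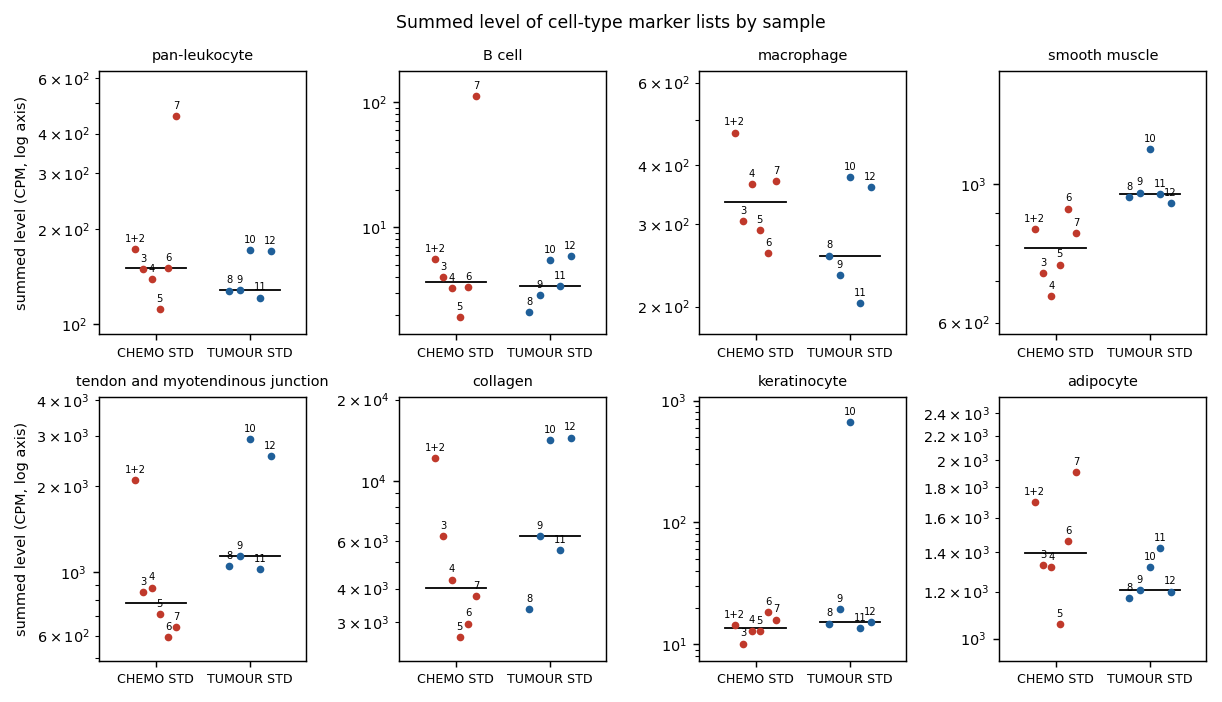
Summed level in CPM (vertical, log axis) of the genes of 8 cell-type lists in each CHEMO STD (red) and TUMOUR STD (blue) sample, numbered by replicate, with group medians as bars. Smooth muscle sums do not overlap between groups, whereas CHEMO STD 7 stands apart for leukocyte lists and TUMOUR STD 10 for keratinocyte genes.

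Smooth muscle contractile genes were lower in all 11 members tested, with a median of -0.52 and 5 called (1.45% called lower over all genes tested). Myh11, the smooth muscle myosin heavy chain, ranged from 30.0 to 62.7 CPM (median 53.7) in CHEMO STD and was 125, 110.1, 103, 72.8 and 64.4 CPM in TUMOUR STD. No sample overlapped, TUMOUR STD 12 coming within 2 CPM of CHEMO STD 6 (log2 fold change -0.93, standard error 0.22). Acta2, smooth muscle actin, ranged from 6.12 to 17.2 CPM (median 8.36) against 21.7, 36.9, 27.4, 13.4 and 18.6 CPM. CHEMO STD 1+2 and 6 reached into the TUMOUR STD range (log2 fold change -1.11, standard error 0.28). Tagln (transgelin), an actin-binding protein of the same cells, ranged from 19.8 to 40.0 CPM (median 34.2) against 66.4, 49.9, 55.1, 45.5 and 49.0 CPM without overlap (log2 fold change -0.74, standard error 0.25). These 3 genes were called whichever sample was left out. Mylk, the myosin light chain kinase, lost its call without CHEMO STD 7 or TUMOUR STD 10 (log2 fold change -0.53 to -0.58) from -0.68, while Actg2, another actin of smooth muscle, was called at a low level (0.807 ± 0.603 CPM against 2.03 ± 0.725 CPM, SD, log2 fold change -1.14) and lost its call without CHEMO STD 3, CHEMO STD 4, CHEMO STD 5, CHEMO STD 6, CHEMO STD 7, TUMOUR STD 8, TUMOUR STD 9, TUMOUR STD 10 or TUMOUR STD 12 (log2 fold change -0.90 to -1.16).

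The smooth muscle list summed to from 661 to 915 CPM (median 789.6) in CHEMO STD and 954, 970.2, 1139.7, 966 and 933 CPM in TUMOUR STD, and these sums did not overlap. Synpo2, which striated fibres also express, made up most of that sum, with a log2 fold change of -0.21. Ednra, the endothelin receptor of vascular smooth muscle and chosen after its values were seen, was lower too (4.51 ± 1.24 CPM against 7.36 ± 1.29 CPM, SD; log2 fold change -0.67, standard error 0.21). Endothelial genes gave no call. Of 14 genes of endothelial adhesion and junction none was called (median -0.10), with the endothelial cadherin Cdh5 at -0.38 and the tight junction gene Cldn5 at 0.01, and of 17 angiogenic ligands and endothelial receptors none was called (median -0.21), with Vegfa at 0.29.

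Tendon and collagen genes were lower on balance, but they moved with single samples of both groups. All 16 tendon and myotendinous junction genes were lower (median -0.83) and 6 were called (1.45% called lower over all genes tested). Their summed level was 2099.6 CPM in CHEMO STD 1+2 and from 594 to 882 CPM in the 5 other CHEMO STD samples, and 1047, 1137, 2908, 1027 and 2549 CPM in TUMOUR STD. High and low samples were thus found in each group. Without TUMOUR STD 10 no tendon gene was called (0 of 16, median -0.52), and without CHEMO STD 1+2 11 were (median -1.28). Tnc (tenascin C), a matrix protein of loaded tendon, ranged from 20.3 to 77.8 CPM (median 25.8) against 39.8, 36.8, 136, 42.1 and 146 CPM (log2 fold change -1.23, standard error 0.47), losing its call without TUMOUR STD 10 or TUMOUR STD 12 (log2 fold change -0.90 to -0.95). Thbs4, a thrombospondin of the myotendinous junction, ranged from 175 to 509 CPM (median 212) against 273, 303, 775, 265 and 613 CPM (log2 fold change -0.79, standard error 0.32), losing its call without TUMOUR STD 10 or TUMOUR STD 12 (log2 fold change -0.49 to -0.64).

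Of 23 collagen genes 21 were lower (median -0.47) and 4 called (1.45% called lower over all genes tested), namely Col12a1 (-0.90), Col22a1 (-0.60), Col27a1 (-0.84) and Col13a1 (-0.85). The number called ranged from 1 to 11 with single samples left out, being 1 without TUMOUR STD 10 and 11 without CHEMO STD 1+2. Col22a1, the collagen of the myotendinous junction, did not follow the samples with high tendon genes. It ranged from 23.5 to 30.8 CPM (median 28.1) against 42.9, 62.4, 47.0, 29.9 and 24.1 CPM, and TUMOUR STD 12 had one of the lowest values; its call was lost without CHEMO STD 1+2, CHEMO STD 4, TUMOUR STD 8, TUMOUR STD 9 or TUMOUR STD 10 (log2 fold change -0.40 to -0.58). Col1a1, the main fibrillar collagen, was at -0.96 with a standard error of 0.65 and was not called. Fibroblast matrix genes (19 tested, 16 lower, median -0.22, and -0.06 without TUMOUR STD 10) had 1 call, fibronectin (Fn1, -0.72), lost without CHEMO STD 4, CHEMO STD 5, CHEMO STD 6, CHEMO STD 7, TUMOUR STD 10 or TUMOUR STD 12 (log2 fold change -0.45 to -0.69).

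Matrix proteases and their inhibitors (16 tested, median -0.09) had 1 call, the membrane-anchored protease Mmp17 (-1.51), which had 0 counts in CHEMO STD 3 and 5 and lost its call when CHEMO STD 1+2, CHEMO STD 4, TUMOUR STD 9, TUMOUR STD 10, TUMOUR STD 11 or TUMOUR STD 12 was left out, since it then missed the filter on low counts. Cartilage and bone genes (2 tested, median -0.74) had 0. Sema4c, a semaphorin expressed in differentiating muscle, ranged from 3.67 to 7.57 CPM (median 4.02) against 7.64, 7.76, 12.2, 6.79 and 9.94 CPM, with CHEMO STD 1+2 alone inside the TUMOUR STD range (log2 fold change -0.88, standard error 0.25). Among the keratinocyte genes, 2 of 18 were tested. Dsp (desmoplakin), of epithelial junctions, was at 176 CPM in TUMOUR STD 10 and between 0.612 and 5.21 CPM elsewhere, so that its log2 fold change of -3.47, a call, went to -0.22 without that sample, where it was not called.

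Of 11 Schwann cell and myelin genes 1 was called, the adhesion molecule L1cam (log2 fold change -1.12, standard error 0.42), lost without TUMOUR STD 10 (log2 fold change -0.90). The myelin protein Mbp (0.38) was not, and the list's median of 0.06 became 0.68 without TUMOUR STD 10, -0.31 without CHEMO STD 1+2 and -0.18 without CHEMO STD 7. These were the samples with the highest sums of the list, 563, 535 and 385 CPM. Piezo2, the stretch-gated channel of proprioceptive and touch neurons, ranged from 5.90 to 12.3 CPM (median 7.82) in CHEMO STD against 17.03, 15.0, 17.1, 12.5 and 17.7 CPM in TUMOUR STD. The groups did not overlap, TUMOUR STD 11 and CHEMO STD 1+2 nearly meeting (log2 fold change -0.93, standard error 0.27). Adipocyte genes (11 tested, 10 higher, median 0.39, 0 called) had wide errors, as for Adipoq (0.39, standard error 0.81), and a median of 0.05 without CHEMO STD 7 and 0.87 without TUMOUR STD 10. Erythroid genes (4 tested, median 0.09) had 0 calls, with haemoglobin Hbb at 0.00 (standard error 0.73).

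Of the 279 called genes 224 belonged to none of the 70 lists, and 42 of the 66 lists with a tested member had no call. The gene with the smallest p was the locus AABR07015055.1, which ranged from 31.2 to 85.4 CPM (median 50.9) in CHEMO STD against 119, 288, 476, 67.5 and 122 CPM in TUMOUR STD. TUMOUR STD 10 and 9 were the highest, and TUMOUR STD 11 overlapped with CHEMO STD (log2 fold change -2.02, standard error 0.41). Its adjusted p was 0.652 by edgeR's quasi-likelihood test with Benjamini-Hochberg adjustment, and 0.719 for all other called genes named here. Zfp474, a zinc finger gene, ranged from 1.57 to 4.31 CPM (median 2.97) against 2.43, 1.59, 1.17, 0.485 and 0.710 CPM (log2 fold change 1.26, standard error 0.38), and CHEMO STD 7 lay below TUMOUR STD 8 and 9.

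Pin4, a peptidyl-prolyl isomerase, ranged from 9.24 to 20.8 CPM (median 16.6) against 12.0, 8.75, 3.40, 12.8 and 4.97 CPM (log2 fold change 0.90, standard error 0.31). TUMOUR STD 10 and 12 were its lowest samples, and the same 2 samples were the lowest for Cinp above and for LOC102551340, which ranged from 3.79 to 11.0 CPM (median 8.59) against 6.43, 5.77, 1.75, 2.59 and 1.95 CPM with CHEMO STD 1+2 below some TUMOUR STD samples (log2 fold change 1.07, standard error 0.34). Bloc1s2, a subunit of a complex that positions lysosomes, ranged from 14.6 to 20.9 CPM (median 16.1) against 13.0, 11.4, 6.02, 12.5 and 11.4 CPM without overlap (log2 fold change 0.67, standard error 0.20), and it lost its call without TUMOUR STD 10 (log2 fold change 0.51). The 4 other loci among the 12 higher genes were RGD1309730 (0.70), AABR07001923.1 (1.20), AABR07055919.1 (1.13) and the pseudogene AABR07002768.1 (0.72), whose function is not given by the files.

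**Figure D5:**
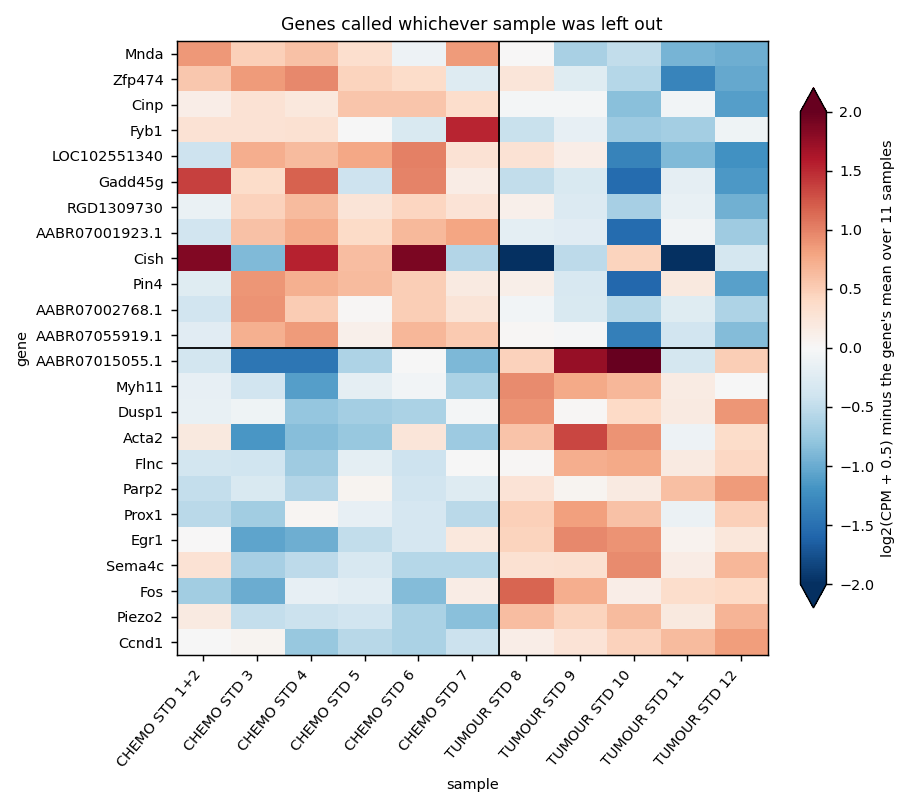
Level of the 24 genes with the smallest p among those called whichever sample was left out (12 higher above the horizontal line, 12 lower below it) in the 11 samples; colour is log2(CPM + 0.5) minus the gene's mean, red above and blue below. CHEMO STD 1+2 is paler than its group for most higher genes, and Cish differs between samples within both groups.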

How the data were processed

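The files held RNA-sequencing counts of gastrocnemius muscle. Raw counts per gene were deposited by the authors, made from TruSeq Stranded Total RNA libraries (Ribo-Zero) with CASAVA 1.9, Trim Galore 0.4.1, FastQC 0.11.4, TopHat2 2.0.10 with Bowtie2 on Rnor 6, and Partek Flow. How reads were counted is not stated in the labels or methods, so near-identical gene copies and overlapping genes are uncertain. Of 32883 rows, 388 without a gene name (0.102% to 0.272% of each library's counts) were left out, and 2 counts had been deposited rounded to 3 digits (Myh4 in TUMOUR STD 9 and 10).

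Groups were taken from the sample titles. CHEMO STD 1 and 2 were summed to 1 sample before all fits. Genes were filtered with edgeR's filterByExpr (minimum count 10, minimum total 15), scaled by TMM and tested with the quasi-likelihood test of edgeR 4.0.16 (limma 3.58.1, R 4.3.3) on CHEMO STD, TUMOUR STD and CHEMO FO together, with no covariate, and the contrast of CHEMO STD with TUMOUR STD was taken. Standard errors are the log2 fold change divided by the square root of F. The threshold for a call was an unadjusted p under 0.05 together with a 1.5-fold or greater change, and Benjamini-Hochberg adjusted p values covered all genes tested. The fit was tested on simulated data. Tables and figures were made with Python 3.11.15, pandas 2.3.3, numpy 2.4.6 and matplotlib 3.10.9. Libraries held 3023899 to 10887041 counts, and at the lowest of these depths genes of a few CPM carried wide counting error.

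The genes named were the 12 with the smallest p in each direction among those called in all 11 leave-one-out fits, up to 4 called members and the first 3 tested members of each list, and in each direction up to 5 called genes without overlap of the groups and with a mean of at least 5 CPM. The members and the 70 gene lists were chosen with earlier results of these data known, and 32 further genes, 8 of them called, were named after their values were seen. The alternatives tried were other size factors, other filters, DESeq2 1.42.0, limma voom, a fit on the 2 groups, other treatments of CHEMO STD 1 and 2, other thresholds, and each sample left out. An added covariate was chosen after seeing the data. A few list members are not reported here.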

Additional observations from a re-analysis of the deposited data

Results flagged for a closer look

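In 92 sets of values of 1 group (27 genes named for a small p or for lack of overlap, and 19 summed cell-type lists), 1 sample lay far from the others of its group in 16. A rate of about 1 in 20 by chance would hold only for independent sets of normal values. These sets share samples and some genes, and the genes were picked from the same values, so the 16 are not set against chance. Genes named only as list members were not examined in this way. CHEMO STD 7 was the highest of CHEMO STD in Fyb1, the leukocyte adaptor, with 13.0 CPM against 5.26 CPM in the next sample. Its sums of leukocyte lists were also apart: the pan-leukocyte genes summed to 453 CPM (next 173 CPM), T and natural killer cell genes to 88.9 CPM (next 30.0 CPM) and B cell genes to 112 CPM (next 5.55 CPM). The same sample was the lowest of its group in Fras1 (24.6 CPM, next 29.0 CPM), the basement membrane gene.

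CHEMO STD 1+2 was the highest of its group in Sema4c (7.57 CPM, next 4.77 CPM) and Piezo2 (12.3 CPM, next 8.27 CPM), both of which were called lower. It was also highest in the sums of fibroblast matrix genes (5866 CPM, next 3637 CPM), matrix proteases and inhibitors (668 CPM, next 474 CPM), tendon and myotendinous junction genes (2099.6 CPM, next 882 CPM) and cartilage and bone genes (16.3 CPM, next 7.65 CPM). CHEMO STD 5 was the highest in Rxylt1 (27.3 CPM, next 20.5 CPM), the dystroglycan xylosyltransferase.

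TUMOUR STD 10 was the lowest of TUMOUR STD in Bloc1s2 (6.02 CPM, next 11.4 CPM). It was the highest in the sums of smooth muscle genes (1139.7 CPM, next 970.2 CPM), Schwann cell and myelin genes (563 CPM, next 205 CPM) and keratinocyte genes (667 CPM, next 19.5 CPM). The part of these samples in the comparison is given with each gene group.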

How the results depend on the processing

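The number of called genes depended on single samples. Against 279 called (109 higher, 170 lower), leaving out CHEMO STD 1+2 gave 603 (220 higher, 383 lower), and leaving out each other sample gave 161 to 530 called, 81 to 273 higher and 78 to 261 lower, with 161 without TUMOUR STD 10, 530 without TUMOUR STD 8 and 450 without TUMOUR STD 11. Without both TUMOUR STD 10 and CHEMO STD 7 there were 135 (58 higher, 77 lower). No filter on low counts gave 971 (390 and 581), a fold of at least 2 gave 64 (28 and 36), p below 0.05 alone gave 762 (313 and 449), and an adjusted p of 0.05 gave 0. DESeq2 on the 2 groups alone put 16 genes past the adjusted threshold. With the first component of the residuals as a covariate, chosen after seeing the data and computed from the same counts with group means removed, so that its p values are too small, 440 were called (214 higher) and 57 passed the adjusted threshold. Other size factors, a stricter filter, DESeq2 on all groups, limma voom, edgeR on 2 groups and the other treatments of CHEMO STD 1 and 2 gave 236 to 313 called. Of the called genes named in the text, 20 of 73 fell short of a call without TUMOUR STD 10 and 11 of 74 under limma voom. Without CHEMO STD 7, 12 of 74 fell short with the same sign. There Coro1a lost its call in addition to those 12, turning from a log2 fold change of 1.49 to -0.0087 (-0.0087 to 1.93 over the samples left out). Genes that missed the filter on low counts in a fit are not in these counts. No paired analysis was possible because the groups share no replicate numbers. Libraries of 3023899 counts and upward give a gene at 1 CPM few counts, so changes in low genes were the least certain. The causes of these differences were not tested.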

Other observations

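Among the called genes were some noncoding RNAs, chosen here after their values were seen. A row for 7SK, the RNA that holds back the elongation factor of RNA polymerase II, was among the most abundant called genes, with a mean of 2396 CPM in CHEMO STD and 3758 CPM in TUMOUR STD (log2 fold change -0.65, standard error 0.28), and 6 of the 11 leave-one-out fits did not call it. The snoRNA rows of SNORD22 (log2 fold change -0.79) and SNORA71 (-1.01), which guide the modification of other RNAs, and a row of 5S_rRNA (-1.37), an RNA of the large ribosomal subunit, were lower too, and 1 of the 11 fits did not call each of them. These families have many near-identical copies, between which reads may have been shared.

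The locus AABR07015056.1, annotated as a miRNA, had the largest increase of the called genes, with means of 6.98 and 0.971 CPM and a log2 fold change of 2.62 (standard error 1.19), and 7 of the 11 fits did not call it.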
